A study of Mus musculus with 8 samples.

Results

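The voltage-gated calcium and sodium channel genes were taken as every symbol of the count tables made of Cacna1 and a letter, Cacna2d, Cacnb or Cacng and a digit, or Scn with digits and a or b, which gave 40 of 33696 genes. Of these, 10 encode calcium channel alpha1 subunits, 4 alpha2delta subunits, 4 beta subunits and 8 gamma subunits, and 10 encode sodium channel alpha subunits and 4 sodium channel beta subunits. Their levels were described over retinal classes and types of retinal ganglion cells (RGCs) and compared between genotypes. The samples were 8 libraries of single-nucleus RNA sequencing (snRNA-seq) of retina, 4 from Piezo2f/f control mice and 4 from Olig2-cre;Piezo2f/f cKO mice, all at P120, with 6 retinae pooled per library. Piezo2 was floxed in both groups, and the cKO mice also carried Olig2-cre, which expresses Cre recombinase in the Olig2 lineage and, per the study, leaves the mice heterozygous for Olig2. The libraries analysed here include no group with Olig2-cre alone, so loss of Piezo2 and the Cre allele cannot be told apart. The design text gives females for both groups, the background was C57BL/6J, and nuclei had been sorted for NeuN and RBPMS to enrich RGCs.

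Voltage-gated calcium channels open on depolarisation and let calcium in to release transmitter, drive spikes or change transcription. Their alpha1 subunit forms the pore and sets the current type (L, P/Q, N, R or T), while the alpha2delta and beta subunits bring it to the membrane and tune it. Most gamma-named genes encode proteins that accompany AMPA-type glutamate receptors rather than calcium channels. Voltage-gated sodium channels carry the upstroke of the action potential, with a pore-forming alpha subunit and beta subunits that set gating and placement. RGCs send the retina's output as action potentials along the optic nerve, whereas rods, cones and most bipolar cells signal by graded potentials and release glutamate at ribbon synapses, where an L-type channel with its own set of subunits opens.

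Nuclei were gated by the number of class marker genes with at least 1 unique molecular identifier (UMI), and no channel gene served as a marker. This gave 18833 RGC, 1737 amacrine, 1353 bipolar, 1431 rod, 478 cone, 1539 Müller glia and 233 horizontal nuclei, with 9303 left ungated. Nuclei outside the RGC gate are those that passed the sort, so their numbers say nothing of the retina's makeup. Libraries held 35697629 to 60088630 UMIs and 2211 to 5315 kept nuclei, and library pairs shared 0 to 11 nuclear barcodes, at most 0.242% of the smaller library. For each library and gate the UMIs of its nuclei were summed, and a gene's share of that sum, scaled to 1000000, is its level (CPM). Depth differed between gates, with a median over libraries of 7761 UMIs per nucleus in RGCs and 1195 in rods, and horizontal nuclei passed the minimum of more than 10 nuclei in only 5 libraries. Of 8 endothelial and mural markers, Müller glia nuclei held Flt1 at 1916 ± 156 CPM and Pdgfrb at 147 ± 23.8 CPM (SD, n = 8), while the other 6 were at 0 (Adgrl4) to 7.29 CPM (Tek) on average. The bipolar markers summed to a mean of 699 CPM in amacrine and 1213 CPM in rod nuclei, beside 13201 CPM in bipolar nuclei. The part of bipolar transcripts in the amacrine and rod levels was not tested. Markers of RGCs in the other classes stood at 3.81% (amacrine) to 12.3% (rod) of their level in empty droplets, and this share, 3.22% for RGC nuclei from rod markers, times a gene's level in empty droplets is taken as the level that free RNA would give. The gates also limited how many markers of another class a nucleus could hold. This share may therefore be too low, and ratios to the free RNA level too high. The targeted gene, Piezo2, was at 15.0 ± 2.71 CPM in control and 12.5 ± 2.72 CPM in cKO RGC nuclei (SD, n = 4 each). Which exons the counted fragments came from is not given in the sources used here, so this level is no check of the deletion.

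Of the 40 members, 34 passed the filter on low counts in all class and RGC type fits. Cacna1s passed it in bipolar fits only, in the comparison with RGCs through its level in bipolar nuclei. The members Cacng1 and Scn11a passed only in the genotype fit of RGC nuclei, and Cacng6, Scn4a and Scn10a passed in no fit. These 5 were scarce, with 155 (Cacng1), 112 (Scn11a), 6 (Cacng6), 80 (Scn4a) and 16 UMIs (Scn10a) over the 7 classes. Scn4a, the skeletal muscle sodium channel, lay at 7.70 ± 4.13 CPM (SD, n = 8) in bipolar nuclei and did not separate there from rods, the next class at 4.75 CPM (adjusted p = 0.257, two-sided exact paired permutation test over libraries, adjusted over 240 neighbouring pairs of classes). Its level in RGC nuclei was 0.188 ± 0.092 CPM (SD, n = 8).

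In every class but amacrine cells most channel genes tested were lower than in RGCs, and a small set built around Cacna1f, Cacna2d4 and Cacnb2 was higher in photoreceptor and bipolar nuclei. Each class was compared with RGC nuclei of the same library by edgeR's quasi-likelihood test on summed counts, with the library as a block and Benjamini-Hochberg adjustment over all genes. To be called, a gene needed an adjusted p below 0.05 together with a log2 fold change beyond 0.5 in either direction. In amacrine nuclei 9 of 34 members tested were higher and 12 lower, where 13.8% and 14.4% of all genes tested were called higher and lower. Bipolar nuclei had 6 higher and 23 lower members of 35, against 21% higher and 26.5% lower over all genes. Cacna1s, counted there as higher, could pass the filter only by being higher, and the other 34 had 5 higher and 23 lower. In rod nuclei there were 3 higher and 29 lower members of 34, against 19.9% higher and 33.2% lower over all genes. Cone nuclei showed 4 higher and 30 lower members of 34, against 16.1% higher and 33.6% lower over all genes. Among Müller glia nuclei there were 4 higher and 29 lower members of 34, against 24.3% higher and 30.2% lower over all genes. Horizontal nuclei, from 5 libraries, had 6 higher and 23 lower members of 34, against 9.07% higher and 19% lower over all genes. The median log2 fold change of the members tested was 0.01 in amacrine, -1.74 in bipolar, -2.04 in rod, -2.69 in cone, -2.52 in Müller glia and -1.38 in horizontal nuclei, beside 0.01, -0.06, -0.22, -0.34, -0.11 and -0.18 over all genes. The share of members called lower was above that of all genes in each of the 6 classes. Some members called lower stood at 0 CPM, or below the limit of the low-count filter, in a library of the class, as Cacng8 did in bipolar nuclei. They passed that filter through their RGC level and remain in the lower counts, and where described below their levels carry no p-value. Lower counts without them were not made, so the shares of lower members include these genes. Many of the lower levels were close to free RNA: 7 of 23 lower members in bipolar, 8 of 29 in rod, 11 of 30 in cone, 10 of 29 in Müller glia, 8 of 23 in horizontal and 1 of 12 in amacrine nuclei stood at under 2 times the level that free RNA would give.

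**Figure D1:**
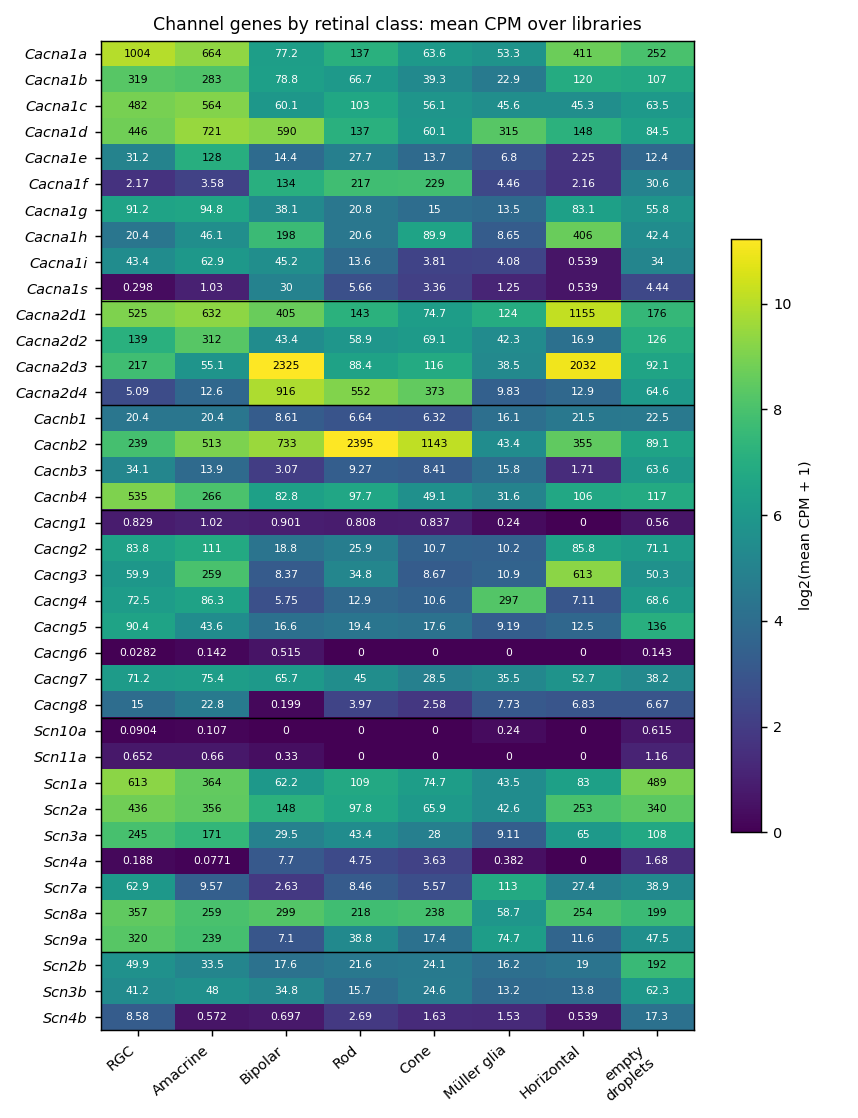
Mean CPM of 38 channel genes (rows, grouped by subunit) over libraries in 7 retinal classes and in empty droplets (columns), coloured by log2(mean CPM + 1) with the mean CPM printed in each cell. Cacna1f, Cacna2d4 and Cacnb2 are brightest in bipolar, rod and cone nuclei, where most sodium channel rows are darker than in RGC nuclei.

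Among the alpha1 subunits, Cacna1f, the L-type pore of photoreceptor and bipolar ribbon synapses, was higher in bipolar, rod and cone nuclei than in RGC nuclei. Cacna1f, at chrX:7473322-7501435 (GRCm39, plus strand), lay at 107 to 148 CPM (median 139) in bipolar nuclei and at 1.63 to 3.00 CPM (median 2.05) in RGC nuclei (log2 fold change 5.95, SE 0.14, adjusted p = 1.43e-33). Its level was 151 to 299.9 CPM (median 212) in rods (log2 fold change 6.28, SE 0.17, adjusted p = 4.98e-19). In cones it was 147 to 290.1 CPM (median 224) (log2 fold change 6.27, SE 0.20, adjusted p = 1.02e-28). Every bipolar, rod and cone value was above every RGC value. In the order of mean CPM, cone (229) and rod (217) did not separate (adjusted p = 0.65, two-sided exact paired permutation test over libraries, adjusted over 240 neighbouring pairs), while rod was above bipolar (134; adjusted p = 0.0361, the smallest value that 8 pairs allow here). Müller glia nuclei were also called higher, at 0 to 11.5 CPM (median 3.93) (adjusted p = 0.0401), but at 1.95 times the free RNA level and higher than in RGCs in only 5 of 8 libraries, and the gene no longer passed the low-count filter when the expected free RNA was subtracted, an alternative chosen after seeing the data.

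Cacna1s, known as the skeletal muscle L-type pore, was found in bipolar nuclei. Cacna1s (chr1:135980259-136047560, plus strand) lay at 15.9 to 43.9 CPM (median 30.3) there and at 0.117 to 0.563 CPM (median 0.266) in RGC nuclei. These levels are given without a test, since the gene entered the fit only through its bipolar level. Rod and cone nuclei held 5.66 ± 4.60 CPM (SD, n = 8) and 3.36 ± 5.24 CPM (SD, n = 8), in which classes the gene was not tested. A predicted gene, Gm37759, overlaps it on the other strand, and whether the counting used strand is not given in the sources used here.

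The start regions of Cacna1f, Cacna1s, Cacna2d3 and Cacnb2 are shown because their levels were higher in bipolar, rod or cone than in RGC nuclei. Of these classes, Cacna2d3 was higher in bipolar nuclei only and was called lower in rods and cones. A further reason is that CRX and OTX2, the homeodomain factors of photoreceptors and bipolar cells, are known to bind a TAATC core. The sequences are RefSeq promoters of build GRCm38.p6, from 250 bases before to 50 after a gene's start, read 5′ to 3′ on the gene's strand, with each TAATC or its reverse complement GATTA in capitals. RefSeq promoters were found for 30 of the 40 members, and Cacna1h and Cacna2d4, which were also higher in some or all of these classes, were not among them.
Cacna1f, chrX:7606853-7607152: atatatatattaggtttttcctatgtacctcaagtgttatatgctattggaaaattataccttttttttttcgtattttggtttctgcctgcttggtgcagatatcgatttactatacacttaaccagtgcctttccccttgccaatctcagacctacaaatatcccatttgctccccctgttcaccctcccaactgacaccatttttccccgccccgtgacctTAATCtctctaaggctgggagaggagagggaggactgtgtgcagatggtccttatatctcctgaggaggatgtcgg
Cacna1s, chr1:136052561-136052860: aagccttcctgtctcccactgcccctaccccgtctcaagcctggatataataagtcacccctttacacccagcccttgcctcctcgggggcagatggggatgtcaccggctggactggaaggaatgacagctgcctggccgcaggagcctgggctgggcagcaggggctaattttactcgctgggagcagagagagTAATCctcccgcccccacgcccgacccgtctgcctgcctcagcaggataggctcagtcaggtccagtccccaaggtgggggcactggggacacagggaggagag
Cacna2d3, chr14:29721815-29722114: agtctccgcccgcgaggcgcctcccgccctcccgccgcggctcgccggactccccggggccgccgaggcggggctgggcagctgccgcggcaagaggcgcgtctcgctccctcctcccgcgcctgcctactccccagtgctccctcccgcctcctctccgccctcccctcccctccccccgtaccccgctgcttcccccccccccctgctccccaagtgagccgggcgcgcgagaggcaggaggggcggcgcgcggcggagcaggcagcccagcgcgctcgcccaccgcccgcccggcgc
Cacnb2, upstream start, chr2:14604056-14604355: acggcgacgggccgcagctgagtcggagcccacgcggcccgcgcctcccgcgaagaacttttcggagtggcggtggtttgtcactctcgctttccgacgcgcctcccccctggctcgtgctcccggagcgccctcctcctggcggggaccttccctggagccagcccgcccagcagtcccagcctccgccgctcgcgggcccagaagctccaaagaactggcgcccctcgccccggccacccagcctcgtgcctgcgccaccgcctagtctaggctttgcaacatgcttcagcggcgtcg
Cacnb2, downstream start, chr2:14823842-14824141: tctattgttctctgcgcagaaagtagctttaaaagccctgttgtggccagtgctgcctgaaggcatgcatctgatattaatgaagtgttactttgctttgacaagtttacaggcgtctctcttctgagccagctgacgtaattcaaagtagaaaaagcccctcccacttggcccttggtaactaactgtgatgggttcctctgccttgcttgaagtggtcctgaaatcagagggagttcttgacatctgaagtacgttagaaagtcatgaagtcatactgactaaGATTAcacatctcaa
The motif began 26 bases before the start of Cacna1f and 54 bases before that of Cacna1s, and at base 36 after the downstream start of Cacnb2, and the start of Cacna2d3 and the upstream start of Cacnb2 held none. Over all 32851 promoters 22.0% held TAATC or GATTA on the printed strand, as did 11 of the 41 promoters of members (26.8%) and 2 of the 16 promoters of the members whose mean level was highest in RGCs (12.5%). The longer form TAATCC or GGATTA was present in 7.06% of all promoters and, among those printed, at Cacna1s. The core was chosen after these sequences had been seen, and a match is a description of letters and not a binding site.

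Cacna1h, a T-type pore that opens near rest, was highest in horizontal nuclei and also high in bipolar cells. Cacna1h (chr17:25593259-25652764, minus strand) lay at 333 to 464 CPM (median 418) in horizontal nuclei and at 18.7 to 22.7 CPM (median 20.03) in the RGC nuclei of the same 5 libraries (log2 fold change 4.30, SE 0.14, adjusted p = 2.25e-213). No horizontal value overlapped an RGC value, and without the library block, which changes how the spread is pooled, the adjusted p was 5.08e-16. The horizontal nuclei also held 6 of 7 amacrine markers, at a summed 641 to 828 CPM (mean 724), with Tfap2c at 0, and the part of these in the horizontal levels was not tested. Its mean fell in the order horizontal (406 CPM), bipolar (198), cone (89.9), amacrine (46.1), rod (20.6), RGC (20.4) and Müller glia (8.65). Bipolar and cone, cone and amacrine, amacrine and rod, and RGC and Müller glia separated (each adjusted p = 0.0361), rod and RGC did not (adjusted p = 1), and the 5 pairs of horizontal and bipolar values cannot go below an unadjusted p of 0.0625. Rods were not called against RGCs (log2 fold change -0.48), whereas bipolar (3.26), cone (1.71) and amacrine nuclei (1.13) were called higher.

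Cacna1e, the R-type pore, was highest in amacrine nuclei. Cacna1e (chr1:154266477-154760247, minus strand) lay at 114 to 157 CPM (median 127) in amacrine and at 26.3 to 35.2 CPM (median 32.1) in RGC nuclei (log2 fold change 1.98, SE 0.06, adjusted p = 1.12e-23), with no overlap. Amacrine was above RGC, the next class, at adjusted p = 0.0361, and the order among RGC, rod, bipolar, cone and Müller glia nuclei did not separate between neighbours. Cacna1d, an L-type pore that opens at more negative potentials than other L-type channels, also rose in amacrine nuclei (log2 fold change 0.63, SE 0.03, adjusted p = 4.24e-17), with a mean of 721 CPM beside 589.6 in bipolar, 446 in RGC and 315 in Müller glia nuclei.

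Cacna1a, the P/Q-type pore of fast transmitter release, was highest in RGC nuclei. Cacna1a (chr8:85065224-85367997, plus strand) lay at 954 to 1068 CPM (median 996) in RGC nuclei and at 15.0 to 165 CPM (median 36.4) in cones (log2 fold change -4.51, SE 0.26, adjusted p = 2.95e-19). Rods held 52.0 to 280.3 CPM (median 133) (log2 fold change -3.37, SE 0.22, adjusted p = 5.21e-12). Müller glia held 26.8 to 122 CPM (median 43.4) (log2 fold change -4.49, SE 0.14, adjusted p = 4.06e-22). These values did not overlap those of RGCs, and they stood at 2.90, 4.43 and 2.89 times the free RNA level. RGC and amacrine nuclei, the next class at 664 ± 51.7 CPM (SD, n = 8), also separated (adjusted p = 0.0361). Cacna1i, another T-type pore, was scarce in horizontal nuclei, with 1 UMI over 5 libraries against 40.2 to 47.3 CPM (median 41.1) in RGC nuclei. The ratio was 46.2, with an exact 95% counting interval of 8.29 to 1827. No test is given, since Cacna1i passed the low-count filter through its RGC level. Of the remaining alpha1 members, Cacna1b (N-type), Cacna1c (L-type) and Cacna1g (T-type) were not called in amacrine nuclei (log2 fold changes -0.23 for Cacna1b and 0.16 for Cacna1c) and were lower in bipolar, rod, cone and Müller glia nuclei by log2 fold changes of -1.26 (Cacna1g, bipolar) to -4.32 (Cacna1b, Müller glia).

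**Figure D2:**
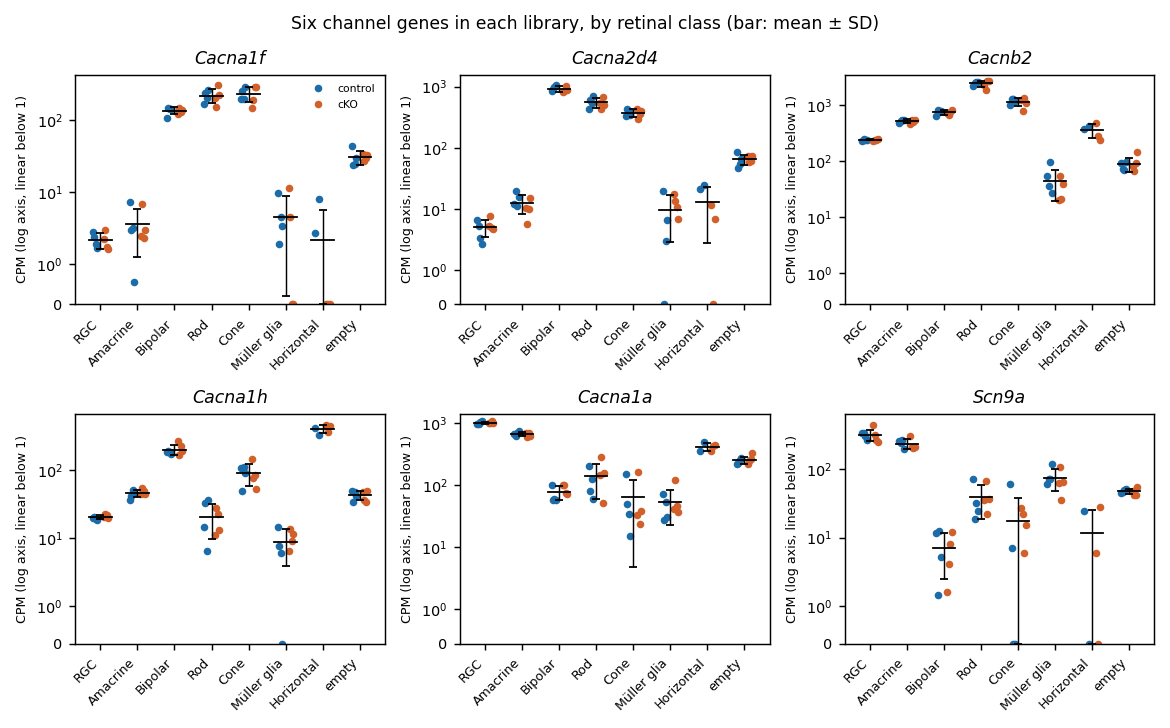
CPM of 6 channel genes (panels) in each library by retinal class and in empty droplets, on a log axis that is linear below 1, with control libraries in blue and cKO libraries in orange, and bars for the mean ± SD over libraries (the lower end stops at 0). Cacna1f, Cacna2d4 and Cacnb2 stand above all RGC values in bipolar, rod and cone nuclei, Cacna1h in horizontal and bipolar nuclei, and Cacna1a and Scn9a are highest in RGC nuclei.

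The alpha2delta subunits split between the classes. Cacna2d4, the subunit of the photoreceptor ribbon synapse (chr6:119213408-119329368, plus strand), lay at 804 to 1040.1 CPM (median 900.4) in bipolar nuclei and at 2.67 to 7.63 CPM (median 5.09) in RGC nuclei (log2 fold change 7.50, SE 0.11, adjusted p = 9.61e-42). Rods held 426 to 703 CPM (median 542) (log2 fold change 6.38, SE 0.18, adjusted p = 5.11e-19). Cones held 297 to 429 CPM (median 377) (log2 fold change 5.77, SE 0.15, adjusted p = 3.15e-31). Bipolar stood above rod and rod above cone (each adjusted p = 0.0361, exact paired permutation test), and none of the 3 classes overlapped RGCs. It was also called higher in amacrine (12.6 ± 4.39 CPM (SD, n = 8)), horizontal (12.9 ± 10.1 CPM (SD, n = 5)) and Müller glia nuclei (9.83 ± 6.95 CPM (SD, n = 8)), at 5.09, 3.55 and 2.05 times the free RNA level, and the Müller glia call was lost when the expected free RNA was subtracted (adjusted p = 0.103). The horizontal call was lost without the library block (log2 fold change 1.41, adjusted p = 0.0599). Lrtm2 lies within its span on the other strand.

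Cacna2d3 was high in bipolar and horizontal nuclei and low in amacrine nuclei. Cacna2d3 (chr14:28626892-29444600, minus strand) lay at 1901 to 2241 CPM (median 1978) in horizontal nuclei and at 205 to 234 CPM (median 218) in RGC nuclei of the same libraries (log2 fold change 3.16, SE 0.14, adjusted p = 1.63e-113, or 5.23e-14 without the library block). In amacrine nuclei it was 39.7 to 77.4 CPM (median 51.7), against 205 to 234 CPM (median 217) in RGC nuclei (log2 fold change -2.05, SE 0.07, adjusted p = 1.61e-22). The bipolar mean of 2325 ± 223 CPM (SD, n = 8) was also called higher (log2 fold change 3.38, adjusted p = 2.76e-38). Rod, cone and Müller glia nuclei were called lower than RGC nuclei, with means of 88.4, 116 and 38.5 CPM. Horizontal and bipolar values lay above all RGC values, and amacrine values lay below them. Cacna2d1 and Cacna2d2, the subunits that bind gabapentin, were higher in different classes, Cacna2d1 being called higher in horizontal nuclei (log2 fold change 1.08) and Cacna2d2 in amacrine nuclei (1.11).

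Among the beta subunits Cacnb2 was higher in photoreceptors and Cacnb3 and Cacnb4 in RGCs. Cacnb2 (chr2:14607899-14994127, plus strand) lay at 1811 to 2699 CPM (median 2508) in rods and at 228 to 248 CPM (median 240.2) in RGC nuclei (log2 fold change 2.91, SE 0.12, adjusted p = 1.04e-15). Cones held 769 to 1334 CPM (median 1201) (log2 fold change 1.78, SE 0.15, adjusted p = 2.59e-14). Rod, cone, bipolar (733 CPM) and amacrine nuclei (513 CPM) fell in that order with every step separated (adjusted p = 0.0361 each), and Müller glia were lowest (43.4 CPM). Cacnb3 had 3 UMIs in the horizontal nuclei of 5 libraries against 31.5 to 35.3 CPM (median 33.0) in RGC nuclei. The ratio was 12.0, with an exact 95% counting interval of 4.12 to 58.5. No test is given, since Cacnb3 passed the low-count filter through its RGC level. Cacnb4 was lower than in RGCs in all 6 other classes, by log2 fold changes of -1.06 (amacrine) to -4.29 (Müller glia). Cacnb1 was called lower in bipolar, rod and cone nuclei and in no other class.

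Of the gamma-named genes, Cacng3 was highest in horizontal and amacrine nuclei and Cacng4 in Müller glia, and both encode AMPA receptor companions. Cacng3 (chr7:122269715-122368619, plus strand) lay at 555 to 667 CPM (median 601) in horizontal nuclei, against 52.0 to 68.1 CPM (median 53.9) in RGC nuclei (log2 fold change 3.34, SE 0.13, adjusted p = 2.24e-146, or 7.59e-14 without the library block). In amacrine nuclei it was 223 to 318 CPM (median 259), against 52.0 to 70.5 CPM (median 57.7) (log2 fold change 2.06, SE 0.04, adjusted p = 5.98e-28). Neither class overlapped RGCs. Cacng4 (chr11:107623183-107685662, minus strand) lay at 221 to 365 CPM (median 302) in Müller glia and at 65.9 to 84.5 CPM (median 71.6) in RGC nuclei (log2 fold change 1.89, SE 0.07, adjusted p = 8.78e-21), and Müller glia separated from amacrine nuclei, the next class (adjusted p = 0.0361). The part of the Flt1 counts of the Müller glia gate in this was not tested. Cacng8 had 1 UMI in bipolar nuclei over 8 libraries, against 13.0 to 16.4 CPM (median 15.0) in RGC nuclei. The ratio was 63.3, with an exact 95% counting interval of 11.3 to 2501. No test is given, since the gene passed the low-count filter through its RGC level. Cacng5 was lower in all 6 classes, and Cacng7 was called lower in rod, cone and Müller glia nuclei only (log2 fold changes -1.04, -1.61 and -1.22).

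Most sodium channel alpha subunits were lower in the other classes than in RGCs, fewest of them in amacrine nuclei. Scn1a, Scn2a, Scn3a, Scn7a, Scn8a and Scn9a were all called lower in rod, cone and horizontal nuclei, and 5 of these 6 in bipolar (not Scn8a) and Müller glia nuclei (not Scn7a). In amacrine nuclei 4 of the 6 were called lower (not Scn2a and Scn9a), and the shares of all genes called lower in these fits, given above, were 14.4% (amacrine) to 33.6% (cone). Scn9a, best known from peripheral sensory neurons (chr2:66310424-66465306, minus strand), lay at 255 to 452 CPM (median 317) in RGC nuclei and at 1.46 to 12.3 CPM (median 6.71) in bipolar nuclei (log2 fold change -5.53, SE 0.16). In horizontal nuclei it was 0 to 28.0 CPM (median 5.87) (log2 fold change -4.70, SE 0.26) and in cones 0 to 61.8 CPM (median 11.2) (log2 fold change -4.48, SE 0.25). For bipolar, horizontal and cone nuclei no test is given, since Scn9a passed the low-count filter through its RGC level. Rods held 18.7 to 72.8 CPM (median 34.0) (log2 fold change -3.47, SE 0.18, adjusted p = 8.90e-14). None of these ranges reached the RGC range, and amacrine nuclei, at 239 ± 38.7 CPM (SD, n = 8), were not called (log2 fold change -0.46). A predicted gene, Gm13629, overlaps Scn9a and Scn1a on the other strand.

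Scn7a, a sodium channel of glia that senses extracellular sodium, was the exception in Müller glia. Scn7a (chr2:66503769-66615367, minus strand) lay at 81.1 to 139.9 CPM (median 125) in Müller glia and at 53.7 to 72.0 CPM (median 65.2) in RGC nuclei (log2 fold change 0.71, SE 0.09, adjusted p = 2.09e-08). It was lower in amacrine (3.85 to 19.3 CPM (median 7.90); log2 fold change -2.86, SE 0.12, adjusted p = 7.73e-20) and bipolar nuclei (0 to 6.35 CPM (median 2.63); log2 fold change -4.37, SE 0.24). In rods it was 0 to 18.2 CPM (median 7.16) (log2 fold change -3.43, SE 0.26) and in cones 0 to 15.0 CPM (median 2.58) (log2 fold change -4.22, SE 0.39). Scn7a had 13 UMIs in bipolar, 16 in rod and 5 in cone nuclei. There it passed the low-count filter through its RGC level, so no test is given for these classes. The Müller glia values were all above, and those of the other 4 classes all below, the RGC values, with bipolar, rod and cone values at 1.21, 1.77 and 1.61 times the free RNA level.

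Scn3a, a sodium channel of developing and adult brain (chr2:65287462-65397971, minus strand), lay at 0 to 27.1 CPM (median 8.42) in Müller glia and at 233 to 265 CPM (median 243) in RGC nuclei (log2 fold change -5.01, SE 0.17), without overlap and at 1.15 times the free RNA level. No test is given, since Scn3a passed the low-count filter through its RGC level. Scn8a, the channel of mature nodes and axon initial segments, had log2 fold changes of -0.29 (bipolar, not called) and -0.51 (amacrine) to -2.85 (Müller glia). Bipolar, amacrine, horizontal, cone and rod means of Scn8a ran from 218 to 299 CPM and no neighbours among them separated.

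Of the sodium channel beta subunits, Scn2b and Scn4b were called lower than in RGCs in all 6 classes and Scn3b in all but amacrine and bipolar nuclei. Scn4b, a subunit tied to resurgent sodium current (chr9:45049595-45065452, plus strand), lay at 0 to 1.85 CPM (median 0.285) in amacrine nuclei and at 5.12 to 13.5 CPM (median 8.49) in RGC nuclei (log2 fold change -3.85, SE 0.35). It had 7 UMIs in amacrine nuclei over 8 libraries and passed the low-count filter through its RGC level, so no test is given. The groups did not overlap, and the amacrine level was 0.869 times that of free RNA. Empty droplets held more Scn2b (192 ± 14.5 CPM (SD, n = 8)) and Scn4b (17.3 ± 2.09 CPM (SD, n = 8)) than RGC nuclei did (49.9 and 8.58 CPM), unlike Cacna1a (252 in empty droplets and 1004 in RGC nuclei).

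Of 33 partner genes of these channels (sodium channel binding factors, initial segment scaffold, the sodium leak channel complex, calcium sensors, calcium channel regulators and active zone scaffold), 7 of 29 tested were higher and 5 lower in amacrine, 8 and 14 of 30 in bipolar, 4 and 19 of 28 in rod, 4 and 21 of 28 in cone, 3 and 20 of 28 in Müller glia and 3 and 14 of 27 in horizontal nuclei. Over all genes the shares called higher and lower were 13.8% and 14.4% in amacrine, 21% and 26.5% in bipolar, 19.9% and 33.2% in rod, 16.1% and 33.6% in cone, 24.3% and 30.2% in Müller glia and 9.07% and 19% in horizontal nuclei. Gem, a small GTPase that holds back calcium channels, lay at 61.7 to 115 CPM in bipolar and 0.218 to 1.56 CPM in RGC nuclei. Cabp2, a calcium sensor of channels, lay at 2.64 to 20.6 CPM in bipolar and 0.0525 to 0.523 CPM in RGC nuclei. Among the class and type fits Gem passed the low-count filter only against bipolar and cone nuclei and Cabp2 only against bipolar nuclei, where each was high, so their levels are given without a test and they count among the higher partners of those classes by that filter. Cabp4, which binds the Cacna1f channel of photoreceptors, lay at 158 to 269 CPM in rods and 3.81 to 8.95 CPM in RGC nuclei (log2 fold change 4.72, SE 0.13, adjusted p = 9.21e-19). The Cabp4 ranges did not overlap. In the other direction, members of the sodium leak channel complex were lower in Müller glia, where Unc79 lay at 15.9 against 386 CPM (log2 fold change -4.94, adjusted p = 6.83e-22) and Nalf1 at 119 against 2608 CPM (-4.87, adjusted p = 4.41e-17). Nalf2, of the same complex, had 0 UMIs there and 2.32 CPM in RGC nuclei (at least 3.22-fold lower, from a floor of 3 UMIs over the 8 libraries), given without a test since it passed the filter through its RGC level.

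Within RGC nuclei, 7 types were gated by UMIs of their own marker genes and each was compared with the RGC nuclei outside its gate. Scn4b, Scn7a, Cacna1h, Cacna1i and Cacng3 were each called in 5 of the 7 types, and Cacna1e and Cacna2d3 in 4. The share of all genes called in as many types was not computed, and the fits share nuclei, so nothing is drawn from these counts. Without the library block Scn4b was no longer called in Cartpt (adjusted p = 0.0914) and Zic1 nuclei (adjusted p = 0.106). The gates held 226 Opn4, 1667 Cartpt, 556 Spp1, 2793 Foxp2, 619 Tbr1, 731 Chrm2/Ppp1r1c and 517 Zic1 nuclei. A nucleus could pass more than 1 gate, and 46 passed both Opn4 and Spp1, 20.4% of the Opn4 gate. Genes not used for gating were higher inside the gates for Opn4 (Eomes 22.6 times), Cartpt (Col25a1 9.69 times), Spp1 (Kcng4 16.3 times), Foxp2 (Foxp1 2.40 times) and Chrm2/Ppp1r1c (Chrm1 10.2 times), but Jam2 was at 1.30 times in the Tbr1 gate, and no further marker was looked for in the Zic1 gate. Spp1 nuclei were deep, with a median of 17203 UMIs, against 7761 in all RGCs. The median log2 fold change of the members tested was -0.21 in Opn4, -0.14 in Cartpt, -0.32 in Spp1, 0.04 in Foxp2, -0.02 in Tbr1, -0.06 in Chrm2/Ppp1r1c and -0.06 in Zic1 nuclei, beside -0.06 (Opn4) to 0.01 (Cartpt) over all genes.

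Spp1 nuclei, the alpha RGC gate, differed in the most members, 6 higher and 12 lower of 34 tested, where 11.1% of all genes were called higher and 12.2% lower. Scn4b lay at 30.8 to 70.9 CPM (median 50.6) in these nuclei and at 3.72 to 8.50 CPM (median 5.66) in the other RGCs (log2 fold change 3.14, SE 0.10, adjusted p = 3.64e-29). Cacna1h lay at 40.3 to 62.0 CPM (median 48.6) against 16.4 to 20.3 CPM (median 18.7) (log2 fold change 1.38, SE 0.09, adjusted p = 4.62e-18), and Cacna2d3 at 455 to 514 CPM (median 498) against 192 to 212 CPM (median 199.7) (log2 fold change 1.32, SE 0.04, adjusted p = 2.71e-32). None of the 3 overlapped between the groups. In the other direction, Cacna1e lay at 0 to 10.2 CPM (median 1.04) against 27.7 to 37.3 CPM (median 34.3) (log2 fold change -3.39, SE 0.23). It passed the low-count filter through the other RGCs, so no test is given, and it stays in the lower count. Scn3b lay at 4.84 to 11.9 CPM (median 8.69) against 37.6 to 46.6 CPM (median 44.0) (log2 fold change -2.26, SE 0.12, adjusted p = 7.03e-21), and Cacna1i at 2.58 to 17.3 CPM (median 9.42) against 39.7 to 53.3 CPM (median 44.5) (log2 fold change -2.12, SE 0.13, adjusted p = 2.46e-19). These also did not overlap, and the sodium channel beta subunits Scn4b and Scn3b went in opposite directions.

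Opn4 nuclei, the intrinsically photosensitive RGCs, had 4 higher and 9 lower members of 34, against 6.45% and 7.56% of all genes. Cacna1h lay at 73.6 to 145 CPM (median 98.8) against 16.5 to 21.9 CPM (median 18.9) in the other RGCs (log2 fold change 2.36, SE 0.14, adjusted p = 1.43e-30). Cacna2d3 lay at 388 to 528 CPM (median 439) against 202 to 231 CPM (median 214) (log2 fold change 1.00, SE 0.07, adjusted p = 1.78e-23), and Cacng3 at 70.3 to 140.4 CPM (median 122) against 50.7 to 69.8 CPM (median 57.2) (log2 fold change 0.90, SE 0.11, adjusted p = 5.79e-11). All 3 were separate from the other RGCs, but under stricter gates for RGCs and for Opn4 together, which left 4 libraries, the fold change of Cacna2d3 was 0.29 and not called. Among the lower members, Cacna1i lay at 7.81 to 36.8 CPM (median 17.6) against 38.3 to 50.5 CPM (median 43.2) (log2 fold change -1.26, SE 0.20, adjusted p = 9.20e-08). Cacna1g lay at 22.2 to 73.6 CPM (median 47.4) against 77.4 to 104 CPM (median 92.4) (log2 fold change -1.05, SE 0.14, adjusted p = 2.06e-10), and Cacnb4 at 257 to 484 CPM (median 303) against 496 to 569 CPM (median 535) (log2 fold change -0.87, SE 0.08, adjusted p = 2.16e-18). The T-type pores thus went in opposite directions, Cacna1h being higher and Cacna1g and Cacna1i lower.

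Chrm2/Ppp1r1c nuclei, in which Piezo2 was 9.80 times the level of the other RGCs, had 3 higher and 5 lower members of 34, against 4.02% and 7.33% of all genes. Scn7a lay at 103 to 172 CPM (median 121) against 51.5 to 67.1 CPM (median 60.2) (log2 fold change 1.13, SE 0.06, adjusted p = 6.15e-20), and Cacna1i at 54.2 to 107 CPM (median 70.8) against 36.2 to 47.5 CPM (median 41.6) (log2 fold change 0.91, SE 0.07, adjusted p = 4.99e-14). Both were higher without overlap. Cacna1e had 12 UMIs in these nuclei over 8 libraries and lay at 0 to 4.67 CPM (median 1.84) against 27.2 to 37.9 CPM (median 33.5) (log2 fold change -4.44, SE 0.25). It passed the low-count filter through the other RGCs, so no test is given, and it stays in the lower count. Cacng3 lay at 8.33 to 28.4 CPM (median 24.4) against 53.5 to 72.6 CPM (median 59.7) (log2 fold change -1.41, SE 0.11, adjusted p = 9.96e-15), and Scn3b at 14.0 to 31.9 CPM (median 22.1) against 35.3 to 46.1 CPM (median 42.6) (log2 fold change -0.92, SE 0.12, adjusted p = 1.15e-08). These were separate from the other RGCs as well.

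Zic1 nuclei had 4 higher and 6 lower members of 34, against 2.91% and 6.17% of all genes. Scn7a lay at 102 to 142 CPM (median 112) against 52.5 to 70.4 CPM (median 63.4) (log2 fold change 0.98, SE 0.08, adjusted p = 4.23e-15). Cacng3 lay at 79.0 to 158 CPM (median 111) against 50.9 to 68.4 CPM (median 56.0) (log2 fold change 0.95, SE 0.09, adjusted p = 4.26e-13), and Cacng4 at 90.4 to 143 CPM (median 96.7) against 65.0 to 83.4 CPM (median 70.9) (log2 fold change 0.61, SE 0.08, adjusted p = 2.46e-08). These 3 were higher than in all other RGC sums. Cacna1e lay at 1.65 to 17.7 CPM (median 4.47) against 26.9 to 36.2 CPM (median 32.9) (log2 fold change -2.52, SE 0.24). It passed the low-count filter through the other RGCs, so no test is given, and it stays in the lower count. Cacna1h lay at 3.68 to 19.1 CPM (median 5.10) against 19.2 to 23.2 CPM (median 20.4) (log2 fold change -1.77, SE 0.24, adjusted p = 4.64e-08). Both were lower without overlap. Scn7a was thus higher in Zic1 and in Chrm2/Ppp1r1c nuclei, whereas Cacng3 was higher in the former and lower in the latter.

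Foxp2 nuclei, the largest gate, had 3 higher and 6 lower members of 34, against 4.65% and 7.51% of all genes. Cacna1i lay at 94.1 to 127 CPM (median 102) against 29.1 to 38.3 CPM (median 33.7) (log2 fold change 1.68, SE 0.04, adjusted p = 8.62e-29). Cacna2d2 lay at 175 to 218 CPM (median 208) against 118 to 134 CPM (median 131) (log2 fold change 0.68, SE 0.03, adjusted p = 4.98e-21), and Scn3a at 336 to 369.9 CPM (median 347) against 217 to 251 CPM (median 226) (log2 fold change 0.65, SE 0.02, adjusted p = 3.95e-23). All were higher without overlap. Scn4b lay at 0.692 to 5.02 CPM (median 2.06) against 5.82 to 14.5 CPM (median 9.48) (log2 fold change -2.03, SE 0.17). It passed the low-count filter through the other RGCs, so no test is given, and it stays in the lower count. Cacng3 lay at 19.0 to 32.7 CPM (median 26.7) against 55.5 to 77.2 CPM (median 62.9) (log2 fold change -1.28, SE 0.06, adjusted p = 5.77e-20), and Scn7a at 24.7 to 40.7 CPM (median 31.3) against 57.5 to 77.3 CPM (median 69.6) (log2 fold change -1.03, SE 0.06, adjusted p = 2.01e-17). All 3 were lower in every library.

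Cartpt nuclei, an ON-OFF direction-selective gate, had 1 higher and 7 lower members of 34, against 4.45% and 6.16% of all genes. Cacna1c, an L-type pore, was the higher member, at 659 to 776 CPM (median 707) against 399 to 481 CPM (median 460.2) (log2 fold change 0.62, SE 0.03, adjusted p = 2.15e-22), without overlap. Scn7a lay at 18.4 to 35.4 CPM (median 26.3) against 58.5 to 76.6 CPM (median 69.5) (log2 fold change -1.46, SE 0.07, adjusted p = 1.87e-20). Cacna1e lay at 6.49 to 31.7 CPM (median 13.1) against 27.9 to 38.5 CPM (median 34.5) (log2 fold change -1.36, SE 0.14, adjusted p = 6.15e-11), and Cacna2d2 at 64.9 to 79.8 CPM (median 70.7) against 137 to 155 CPM (median 149) (log2 fold change -1.05, SE 0.04, adjusted p = 6.26e-23). The Cacna1e ranges overlapped, although each library was lower in the gate. Tbr1 nuclei had 2 higher and 3 lower members of 34, against 1.9% and 2.94% of all genes. Scn4b lay at 9.78 to 35.7 CPM (median 26.6) against 4.64 to 13.0 CPM (median 7.36) (log2 fold change 1.69, SE 0.17, adjusted p = 2.13e-10), and Cacnb2 at 253 to 400.2 CPM (median 339) against 224 to 244 CPM (median 236) (log2 fold change 0.51, SE 0.06, adjusted p = 9.70e-09). The Scn4b ranges overlapped, and Cacnb2 lay at the fold limit and lost its call without cKO replicate 10, 11 or 13 (log2 fold changes 0.48, 0.49 and 0.46). Cacna1h lay at 3.46 to 12.3 CPM (median 9.35) against 19.2 to 23.2 CPM (median 20.8) (log2 fold change -1.47, SE 0.19, adjusted p = 1.01e-07). Cacna1i lay at 11.9 to 40.3 CPM (median 17.3) against 38.7 to 51.3 CPM (median 43.9) (log2 fold change -1.15, SE 0.13, adjusted p = 5.66e-09), and Cacna1c at 274 to 376 CPM (median 324) against 438 to 517 CPM (median 492) (log2 fold change -0.57, SE 0.05, adjusted p = 1.25e-12). Of these lower members only the ranges of Cacna1i overlapped.

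**Figure D3:**
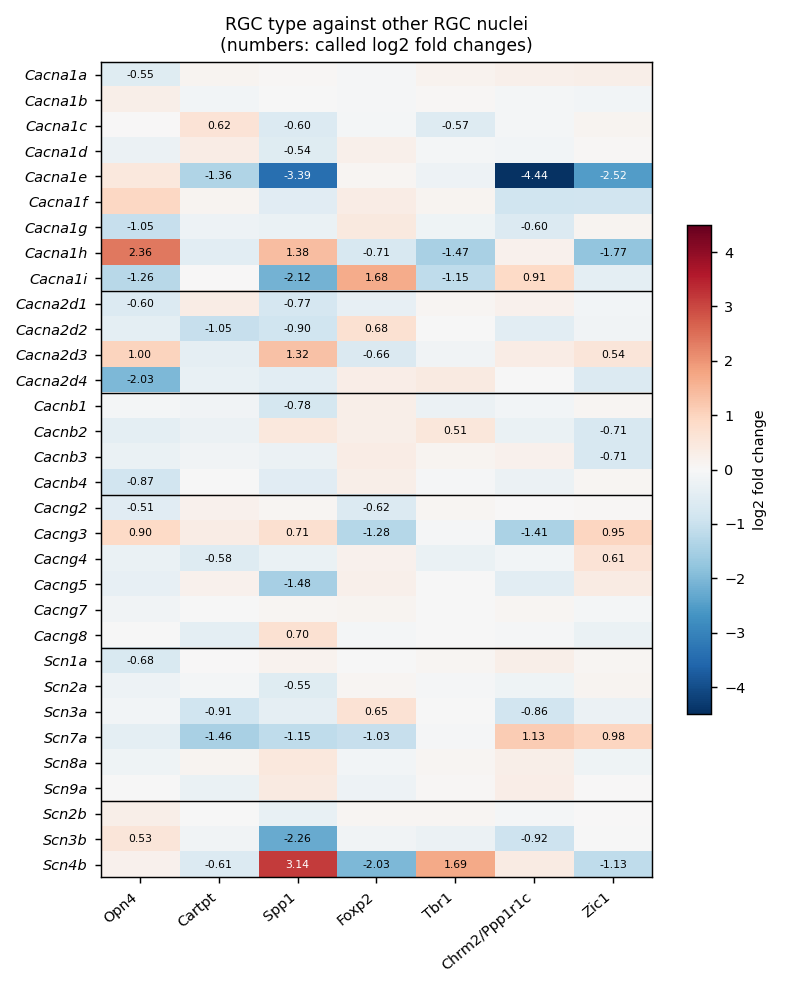
Log2 fold change of 32 of the 34 channel genes tested (rows) in each of 7 RGC types against the RGC nuclei outside that gate (columns), red for higher and blue for lower, with the value printed where edgeR called it. The Spp1 column holds 16 printed values, more than any other, among them 3.14 for Scn4b and -3.39 for Cacna1e.

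**Figure D4:**
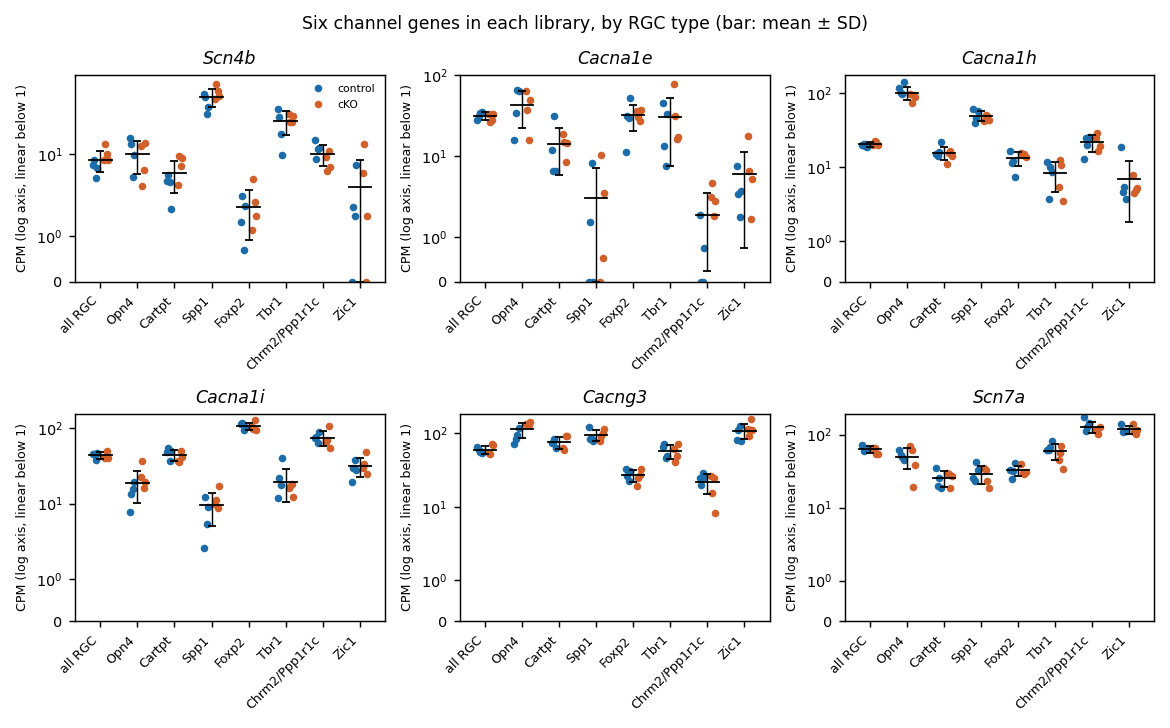
CPM of 6 channel genes (panels) in each library, in all RGC nuclei and in 7 RGC types, on a log axis that is linear below 1, with control libraries in blue, cKO libraries in orange and bars for the mean ± SD over libraries (the lower end stops at 0). Scn4b stands highest in Spp1 nuclei, Cacna1h in Opn4 nuclei and Cacna1i in Foxp2 nuclei.

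Cacna1b, Scn8a, Scn9a, Scn2b, Cacna1f and Cacng7 were called in none of the 7 types. Their log2 fold changes ran from -0.89 (Cacna1f, Chrm2/Ppp1r1c) to 0.95 (Cacna1f, Opn4), and without Cacna1f, which had 339 UMIs in RGC nuclei, from -0.32 (Scn2b, Spp1) to 0.48 (Scn8a, Spp1). Of the partner genes, 3 of 28 were higher and 6 lower in Opn4 nuclei, where 6.45% and 7.56% of all genes were, and 4 of 28 higher and 5 lower in Spp1 nuclei, against 11.1% and 12.2% of all genes. In each of the other 5 types at most 1 was higher and at most 2 lower.

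Between cKO and control libraries no channel gene passed the test in any of 6 classes or 7 RGC types. The question here was whether channel genes of retinal neurons differ when Piezo2 is removed in the Olig2 lineage. By edgeR, with genotype as the only term, 0 of 36 members tested were called in RGC nuclei, and 0 of 8 (cone) to 32 (amacrine, Cartpt and Foxp2) in the other fits. Over all genes the share called was 0% in RGC, rod, cone and Müller glia nuclei and in the Opn4, Cartpt, Spp1, Foxp2, Tbr1 and Zic1 types, 0.0085% in amacrine, 0.0253% in bipolar and 0.0202% in Chrm2/Ppp1r1c nuclei. At an unadjusted p under 0.05, 3 of 36 members and 617 of 17845 genes stood out in RGC nuclei, and DESeq2 called 0 members and 2 genes there. Over all 13 fits 26 of 339 member tests had such a p. This pooled share was above that of all genes in each fit, which ran from 2.82% (Müller glia) to 6.34% (Opn4). The type fits share nuclei with the RGC fit, so these tests are not independent. DESeq2 called 0 members and 0 to 6 genes per fit. The median log2 fold change in RGC nuclei was -0.05 over the members and 0.01 over all genes. Horizontal nuclei were not tested, since fewer than 3 libraries of a group passed.

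In RGC nuclei Scn4b and Scn7a had the smallest unadjusted p, and values are given in the order of replicates 1 to 4 (control) and 10 to 13 (cKO). Scn4b lay at 7.49, 8.41, 5.12 and 6.85 CPM in the control and 8.57, 13.5, 10.2 and 8.61 CPM in the cKO libraries (log2 fold change 0.47, SE 0.17, unadjusted p = 0.0171, adjusted p = 0.996). Every cKO value was above every control value, and the share of RGC nuclei in the Spp1 gate, where Scn4b was highest, was 2.48 ± 0.688% in control and 3.23 ± 0.630% in cKO libraries (SD, n = 4 each). The part of this share in the level was not tested. Within Spp1 nuclei Scn4b was at 43.2 ± 10.9 CPM in control and 57.1 ± 10.3 CPM in cKO libraries (SD, n = 4 each), with overlap. Scn7a lay at 72.0, 59.5, 66.4 and 64.2 CPM in the control and 66.1, 66.3, 53.7 and 54.7 CPM in the cKO libraries (log2 fold change -0.19, SE 0.08, unadjusted p = 0.0278, adjusted p = 0.996), and its groups overlapped.

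**Figure D5:**
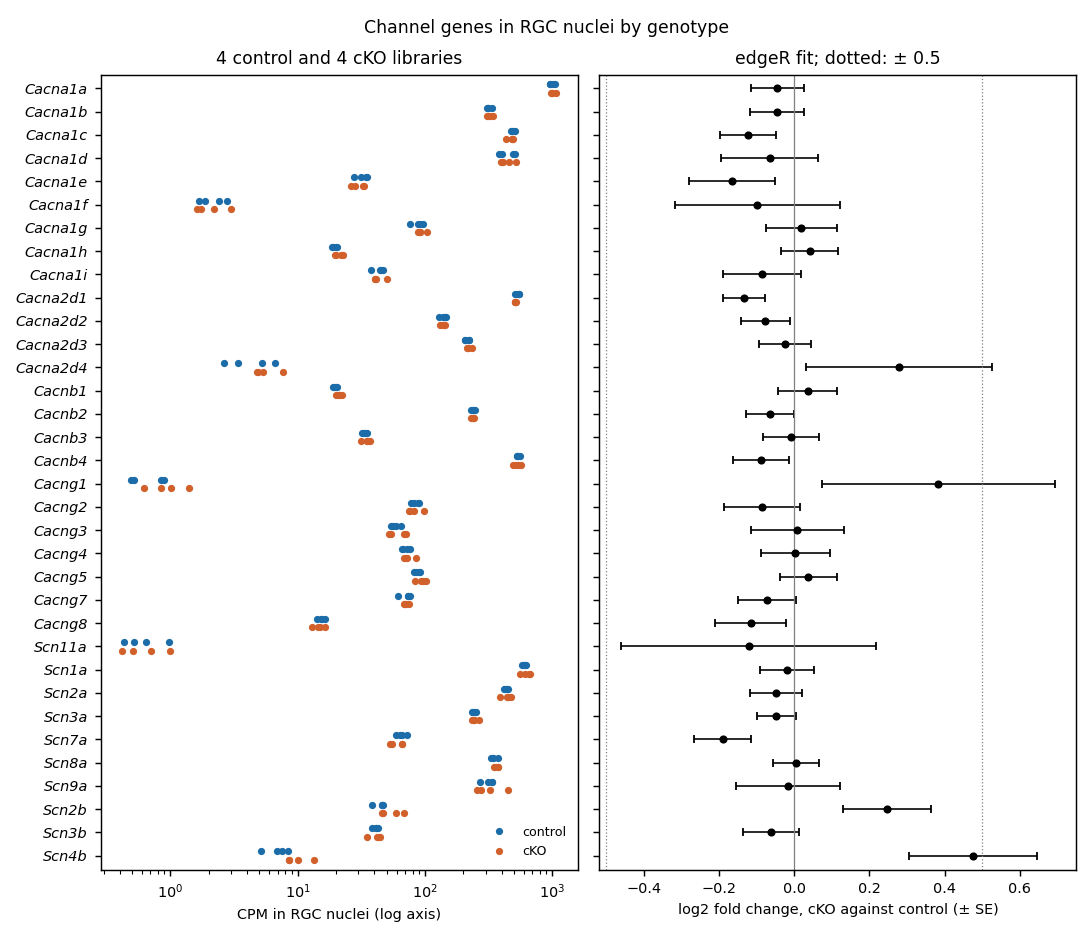
Left, CPM of 34 of the 36 channel genes tested in RGC nuclei (rows, log axis) in each control (blue) and cKO (orange) library. Right, their log2 fold change between cKO and control with SE bars and dotted lines at the fold limit of 0.5, where no point lies beyond the lines and Scn4b, at 0.47, is the farthest from 0.

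In the other classes the groups overlapped for each of the members with the smallest p. In rods Cacna2d3 lay at 182, 88.9, 162 and 60.6 CPM in the control and 63.0, 61.7, 17.3 and 72.0 CPM in the cKO libraries (log2 fold change -1.26, SE 0.41, unadjusted p = 0.00828, adjusted p = 0.999). With no filter on low counts this member was called in rods (log2 fold change -1.23, adjusted p = 0.00651), as 1 of 57 genes called in that fit, and no other alternative gave a called member between genotypes. Rod levels of Scn2a lay at 106, 65.5, 90.5 and 48.5 CPM in the control and 98.7, 207, 62.0 and 104 CPM in the cKO libraries (log2 fold change 0.47, SE 0.35, unadjusted p = 0.201, adjusted p = 0.999). In amacrine nuclei Scn1a lay at 410.3, 396, 362 and 368 CPM in the control and 311, 371, 345 and 346 CPM in the cKO libraries (log2 fold change -0.20, SE 0.09, unadjusted p = 0.0295, adjusted p = 0.978). Amacrine levels of Cacng5 lay at 48.8, 45.4, 46.7 and 51.3 CPM in the control and 30.2, 34.0, 58.0 and 34.7 CPM in the cKO libraries (log2 fold change -0.34, SE 0.19, unadjusted p = 0.0836, adjusted p = 0.978). Neither rod Scn2a nor these amacrine members passed the test. In bipolar nuclei Cacna1c lay at 45.8, 40.8, 44.1 and 63.4 CPM in the control and 69.9, 86.5, 60.2 and 70.2 CPM in the cKO libraries (log2 fold change 0.54, SE 0.21, unadjusted p = 0.0194, adjusted p = 0.999996). Bipolar levels of Cacna2d2 lay at 50.9, 39.3, 61.7 and 50.2 CPM in the control and 28.6, 49.5, 40.7 and 26.1 CPM in the cKO libraries (log2 fold change -0.56, SE 0.25, unadjusted p = 0.0388, adjusted p = 0.999996). The ranges overlapped for both. In cones Scn8a lay at 247, 225, 166 and 225 CPM in the control and 241, 297, 275 and 229 CPM in the cKO libraries (log2 fold change 0.27, SE 0.21, unadjusted p = 0.21, adjusted p = 0.999729). Cone levels of Cacna2d3 lay at 216, 77.4, 34.5 and 75.0 CPM in the control and 147, 143, 95.7 and 137 CPM in the cKO libraries (log2 fold change 0.25, SE 0.41, unadjusted p = 0.555, adjusted p = 0.999729), a sign that turned without control replicate 3 (-0.063) and without doublet removal (-0.062). In Müller glia Cacnb2 lay at 54.1, 36.4, 94.3 and 27.0 CPM in the control and 20.5, 54.2, 21.4 and 39.6 CPM in the cKO libraries (log2 fold change -0.96, SE 0.36, unadjusted p = 0.0165, adjusted p = 0.999). Müller glia levels of Scn7a lay at 134, 139.9, 127 and 81.1 CPM in the control and 128, 122, 91.7 and 81.5 CPM in the cKO libraries (log2 fold change -0.26, SE 0.19, unadjusted p = 0.173, adjusted p = 0.999).

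In the RGC types no member passed the test. The groups did not overlap for 3 of 26 members tested in Opn4, 2 of 30 in Spp1, 1 of 30 in Tbr1 and 1 of 31 in Chrm2/Ppp1r1c nuclei. The number was 0 in Cartpt, Foxp2 and Zic1 nuclei, and 1 of 36 in all RGC nuclei. The share of all genes without overlap was not computed, so nothing is drawn from these counts. In Opn4 nuclei Cacng3 lay at 70.3, 82.1, 93.9 and 116 CPM in the control and 133, 135, 128 and 140.4 CPM in the cKO libraries (log2 fold change 0.50, SE 0.20, unadjusted p = 0.0188, adjusted p = 0.674), all cKO values above all control values. Opn4 levels of Cacng5 lay at 85.9, 90.1, 67.8 and 103 CPM in the control and 50.8, 81.8, 51.2 and 63.3 CPM in the cKO libraries (log2 fold change -0.52, SE 0.24, unadjusted p = 0.0406, adjusted p = 0.754). In Spp1 nuclei Cacna1c lay at 439, 304, 329 and 369 CPM in the control and 311, 278, 305 and 299 CPM in the cKO libraries (log2 fold change -0.30, SE 0.11, unadjusted p = 0.0114, adjusted p = 0.999821). Spp1 levels of Scn2b, without overlap, lay at 28.4, 35.7, 29.0 and 35.7 CPM in the control and 37.7, 55.9, 52.4 and 37.4 CPM in the cKO libraries (log2 fold change 0.43, SE 0.18, unadjusted p = 0.0302, adjusted p = 0.999821). In Tbr1 nuclei Scn7a lay at 62.5, 62.6, 67.2 and 81.9 CPM in the control and 44.5, 55.5, 69.2 and 33.7 CPM in the cKO libraries (log2 fold change -0.50, SE 0.20, unadjusted p = 0.0217, adjusted p = 0.999907). Tbr1 levels of Cacng7, all lower in cKO, lay at 101, 69.3, 77.3 and 72.1 CPM in the control and 59.3, 58.5, 67.0 and 64.0 CPM in the cKO libraries (log2 fold change -0.34, SE 0.16, unadjusted p = 0.0456, adjusted p = 0.999907). The Opn4 sums hold 16 to 37 nuclei per library.

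The other types gave no call either. In Cartpt nuclei Cacna2d1 lay at 699, 682, 682 and 652 CPM in the control and 627, 654, 608 and 622 CPM in the cKO libraries (log2 fold change -0.17, SE 0.07, unadjusted p = 0.0275, adjusted p = 0.998). Cartpt levels of Scn4b lay at 4.72, 5.53, 4.52 and 2.16 CPM in the control and 4.20, 9.58, 7.14 and 8.92 CPM in the cKO libraries (log2 fold change 0.73, SE 0.34, unadjusted p = 0.05, adjusted p = 0.998). Both overlapped between the groups. In Foxp2 nuclei Cacnb4 lay at 666, 596, 619.7 and 655 CPM in the control and 599.8, 534, 608 and 623 CPM in the cKO libraries (log2 fold change -0.16, SE 0.08, unadjusted p = 0.0625, adjusted p = 0.992). In Chrm2/Ppp1r1c nuclei Cacna2d1 lay at 543, 617, 585 and 651 CPM in the control and 539.5, 488, 616 and 509.6 CPM in the cKO libraries (log2 fold change -0.21, SE 0.09, unadjusted p = 0.0282, adjusted p = 0.831). Levels of Scn7a in that type lay at 172, 113, 126 and 145 CPM in the control and 116, 114, 103 and 129 CPM in the cKO libraries (log2 fold change -0.30, SE 0.13, unadjusted p = 0.0322, adjusted p = 0.831). Overlap was again present in each. In Zic1 nuclei Cacna2d2 lay at 122, 134, 149 and 134 CPM in the control and 108, 101, 127 and 99.8 CPM in the cKO libraries (log2 fold change -0.36, SE 0.15, unadjusted p = 0.0209, adjusted p = 0.998). Zic1 levels of Cacna2d3 lay at 286, 331, 315 and 377 CPM in the control and 238, 249, 336 and 298 CPM in the cKO libraries (log2 fold change -0.28, SE 0.13, unadjusted p = 0.0416, adjusted p = 0.998). Their ranges overlapped too. The type sums are part of the RGC sums of the same libraries, so these fits are not independent of each other. Of the 33 partner genes 0 were called in any genotype fit by edgeR.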

How the data were processed

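Nuclei of 8 retinal libraries (4 control, 4 cKO, 6 pooled retinae each) had been sorted for NeuN and RBPMS and sequenced with 10x 3′ chemistry. The deposited values are raw UMI counts per gene and barcode, which the authors made with Cell Ranger (version 7.0.0 and build GRCm39 in the submitters' processing notes), before their own removal of ambient RNA and doublets. Whether the counting used strand is not given in the sources used here.

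Of 45918 barcodes called as nuclei, by the UMI total or by a test against empty droplets, 9606 were removed by filters on genes, UMIs and mitochondrial counts, and 1377 as predicted doublets by Scrublet score at the rate expected from the load, since its own threshold marked only 0 to 12 per library. This left 34935 nuclei (Python 3.11.15, scanpy 1.11.5, scipy 1.17.1). Counts were summed per library and gate where a library had more than 10 nuclei and more than 1000 UMIs. Sums were tested with edgeR 4.0.16 (R 4.3.3) by the quasi-likelihood test after TMM normalization and the default low-count filter, with the library as a block within libraries and genotype alone between them, and Benjamini-Hochberg adjustment over all genes tested. SE is the size of the log2 fold change divided by the square root of F. Intervals and floors cover counting error only. The scripts were tested on simulated data.

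The 40 members and all lists were chosen with earlier results of these data known. In each class or type comparison values are given for up to 3 called members per direction with the largest fold change and the same sign in every library, and between genotypes for the 2 with the smallest p. The partner list is given by counts, with up to 3 genes per direction over all classes. Other members are named from the same fits after their values were seen. Values of 2 members are not reported here, though counts over the members include them. Replicates are separate libraries in the labels, which give no batch or date, so p-values refer to these libraries. The edgeR p-values use a spread pooled over genes. In the 5 libraries with horizontal nuclei those of Cacna1h, Cacna2d3 and Cacng3 were far smaller with the library block than without it. Their size there is thus no measure of the spread between libraries. Gene positions are from GENCODE vM39 on GRCm39. Alternatives were DESeq2 1.42.0, no low-count filter, other nucleus calling, no doublet removal, stricter gates, no library block, single genotypes and leaving out each library. No TMM and subtraction of the expected free RNA were added after seeing the data.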

Additional observations from a re-analysis of the deposited data

Results flagged for a closer look

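In 12 of 174 sets of libraries (6.90%, where chance gives about 1 in 20) 1 library stood apart from the others by Dixon's gap test. In RGC nuclei, Scn9a was at 451.9 CPM in cKO replicate 10, against 255 to 337 CPM in the other 7 libraries. In amacrine nuclei, Cacng5 was at 58.0 CPM in cKO replicate 12 (30.2 to 34.7 CPM in the other 3 cKO libraries). In cone nuclei, Scn9a was at 61.8 CPM in control replicate 1 (0 to 26.8 CPM), and in Müller glia nuclei Cacna1a was at 122 CPM in cKO replicate 11 (26.8 to 70.5 CPM). A lone UMI set 2 of the values, Cacng8 in bipolar nuclei of cKO replicate 10 (1.59 CPM) and Cacna1i in horizontal nuclei of control replicate 1 (2.70 CPM), with all other libraries at 0.

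Among the RGC types, Cacnb4 was at 484 CPM in Opn4 nuclei of control replicate 1 (257 to 315 CPM in the others). Cacna1i was at 40.3 CPM in Tbr1 nuclei of control replicate 4 (11.9 to 21.6 CPM), and Cacna2d2 was at 175 CPM in Foxp2 nuclei of control replicate 2 (199 to 218 CPM). In Zic1 nuclei, Cacna1e was at 17.7 CPM in cKO replicate 10 (1.65 to 7.63 CPM) and Cacna1h at 19.1 CPM in control replicate 1 (3.68 to 7.87 CPM). Outside the Cartpt gate, Cacna1c was at 399 CPM in RGC nuclei of cKO replicate 11 (448 to 481 CPM). Each described difference called for these genes in these gates kept its direction and its call without the library named.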

How the results depend on the processing

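Of 424 alternatives for the 26 counts of called members, 423 stayed within 1.5 times the count as reported. The exception was the rod genotype comparison with no filter on low counts, with 1 member called (Cacna2d3, log2 fold change -1.23, edgeR adjusted p = 0.00651). Leaving out 1 library gave 19 to 22 called members in amacrine, 29 to 30 in bipolar, 31 to 33 in rod, 33 to 34 in cone, 31 to 33 in Müller glia and 25 to 29 in horizontal nuclei, and 9 to 13 in Opn4, 8 to 9 in Cartpt, 19 to 20 in Spp1, 9 in Foxp2, 4 to 5 in Tbr1, 8 to 9 in Chrm2/Ppp1r1c and 9 to 10 in Zic1 nuclei, with 0 in every genotype fit. Of 1611 alternatives for the 95 described fold changes, 1601 kept direction and call. Those that did not were Cacna2d3 in Opn4 nuclei under stricter gates (0.29), Cacnb2 in Tbr1 nuclei with no filter (0.48), control libraries alone (0.36), no TMM (0.49) or without cKO replicate 10, 11 or 13 (0.48, 0.49 and 0.46), and Cacna2d3 in rods as above. Cacna2d3 in cones between genotypes, not called, turned from 0.25 to -0.062 without doublet removal and ranged from -0.063 (without control replicate 3) to 1.10 (without control replicate 1). The cause was not tested. Leaving out TMM moved the log2 fold changes of the members tested by a median of 0.41 in rods, 0.46 in cones and 0.16 in Müller glia, and no called member changed sign. Subtracting the expected free RNA ended 3 calls of members, 1 each in rods, cones and Müller glia (Cacna2d4, adjusted p = 0.103), and Cacna1f was not tested in Müller glia. Under stricter gates no genotype value could be had for Opn4 and Tbr1. No paired analysis was possible because the genotypes share no replicate number. Without the library block, the counts of class and type calls stayed within 1.5 times, and the calls lost were Cacna2d4 in horizontal (adjusted p = 0.0599) and Opn4 nuclei (0.0591) and Scn4b in Cartpt (0.0914) and Zic1 nuclei (0.106). Low counts left 8 members testable between genotypes in cones and 16 each in rods and Müller glia.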
